A study of Nannochloropsis oceanica strain IMET1 with 6 samples.

Results

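Among the cis-interactions of Nannochloropsis oceanica IMET1, 285 pairs of 1-kb bins were listed at all 3 stages of a nitrogen deprivation (ND) experiment. They were chosen by their presence, as the same bin pair, in the lists of C0, N1 and N2, and so by the contact counts, p-values and q-values with which the authors called each list at a q-value below 0.01. C0 cells were nitrogen-replete (NR), N1 cells had spent 1 day and N2 cells 2 days under ND, and all were cells of strain IMET1 under continuous light. C0 cells came from f/2 medium, and N1 and N2 cells were moved to nitrogen-free f/2 medium and, by the labels, to weaker light, so deprivation, transfer and light cannot be told apart. Each group had 2 replicates, which the authors pooled before calling, so each group gives 1 list and 1 value, and no comparison between groups carries a replicate error or a test. The kept pairs were 3.43% of the 8318 pairs listed in any group. Intervals given with counts, shares and ratios are exact 95% intervals and cover counting error only, and read pairs without molecular identifiers are not independent molecules.

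N. oceanica is a marine microalga that stores triacylglycerol when nitrogen runs out, while growth and photosynthesis slow. Hi-C crosslinks chromatin, cuts the DNA, joins ends that lay close together in the nucleus and sequences the joints, so that a contact count is the number of read pairs joining 2 bins. Contacts fall steeply with distance along the chromosome, and Fit-Hi-C therefore compares each count with the count expected at that distance, multiplied by a bias factor for each bin. A bias factor of 1 belongs to an average bin, and a bin that gathers more read pairs has a larger factor. Some bins on different chromosomes carried identical factors, as given below. The observed over expected ratio used here is the contact count divided by that expected count. It is not independent of the rule, since the same quantities gave the p-values.

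The number of kept pairs was 285, with a Poisson interval of 253 to 320. They made up 6.40% of the 4456 pairs of C0 (5.70% to 7.15%), 30.1% of the 948 pairs of N1 (27.2% to 33.1%) and 5.65% of the 5042 pairs of N2 (5.03% to 6.33%). The N1 list was the shortest. Of the 373 pairs listed at both N1 and C0, 76.4% were also listed at N2, and of the 452 pairs listed at both N1 and N2, 63.1% were also listed at C0. Of the 1588 pairs shared by N2 and C0, 17.9% were listed at N1. The other 1303 of these pairs were absent from the N1 list alone, against 88 absent from the N2 list alone and 167 absent from the C0 list alone. The contacts of the kept pairs summed to 23592 in C0, 8945 in N1 and 21574 in N2. These sums were 10.6%, 30.7% and 9.76% of all contacts in the C0, N1 and N2 lists.

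A pair between average bins needed a different enrichment to be listed in each group. At 2 kb, the expected count of such a pair was 22.6 in C0, 10.3 in N1 and 14.3 in N2, and it entered the list at 52, 33 and 39 contacts, which is 2.30, 3.19 and 2.73 times the expected count. The members nearest the threshold show where the rule ended. At C0 the highest q-value of a member was 0.00855, for the pair at the left end of chromosome 7 (1 to 1000 with 2001 to 3000, 75 contacts). At N1 it was 0.00986, for chromosome 11, 383001 to 384000 with 388001 to 389000 (19 contacts). At N2 it was 0.00692, for chromosome 3, 320001 to 321000 with 322001 to 323000 (25 contacts). Pairs just outside the threshold are in no list, so their values are not given here. Coordinates are those of the authors' lists, on version V2 of the IMET1 genome by the study's methods, counted from 1. The nuclear gene annotation and sequence of this genome were not used here, so no gene is named for a bin.

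The kept pairs were short. The bins lay 2 kb apart, with 1 bin between them, in 224 of the 285 pairs, or 78.6% (73.4% to 83.2%). Another 29 pairs lay 3 kb apart, 20 lay 4 to 5 kb apart, 6 lay 6 to 10 kb apart, 4 lay 11 to 100 kb apart and 2 lay more than 100 kb apart. Of the pairs of each list that were not kept, a smaller share lay at 2 kb, 30.0% in C0, 72.1% in N1 and 31.2% in N2. Of the pairs listed at N1 and N2 but not at C0, however, 139 of 167 lay at 2 kb (83.2%), a larger share than in the kept pairs. The distance of 2 kb is also the shortest in the lists, and within each group the expected count at 2 kb equalled that at 3 kb. The share at 2 kb fell to 41.2% when this flat stretch was replaced by a sloping one.

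**Figure D1:**
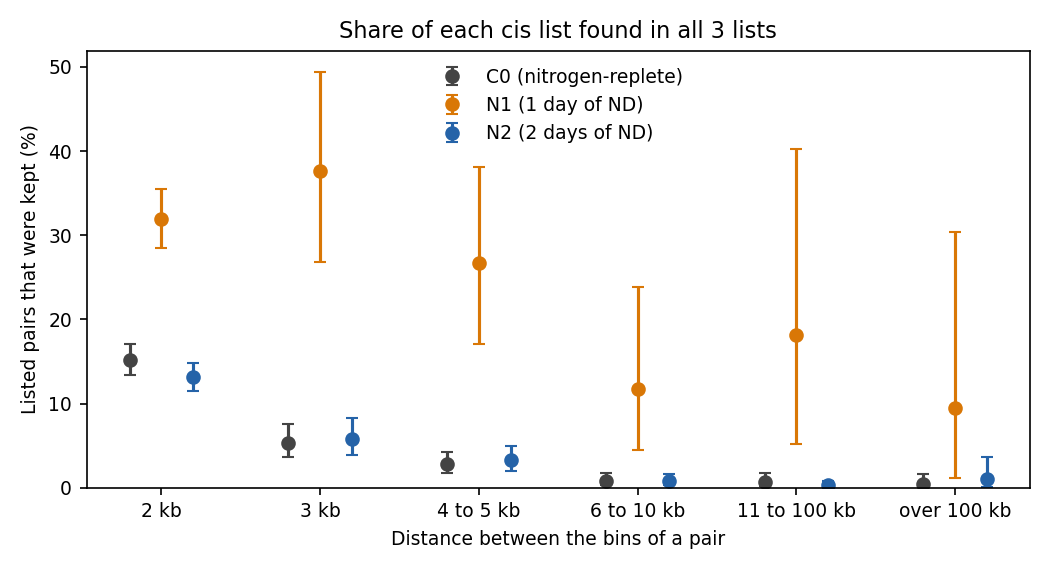
Share of the listed cis pairs of C0, N1 and N2 that were found in all 3 lists (y axis, percent) by the distance between the bins (x axis). Points are shares and bars exact binomial 95% intervals. At 2 kb the share was 15.2% in C0, 31.9% in N1 and 13.1% in N2, and at 6 to 10 kb it was 0.826%, 11.8% and 0.776%.

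The share of each list that was kept was also taken by distance. Of the 2-kb pairs, 15.2% of C0, 31.9% of N1 and 13.1% of N2 were kept. Of the 3-kb pairs, 5.38%, 37.7% and 5.82% of the C0, N1 and N2 lists were kept. At 4 to 5 kb the shares were 2.81% in C0, 26.7% in N1 and 3.27% in N2, and at 11 to 100 kb they were 0.701%, 18.2% and 0.318%. In C0 and N2 the kept share was thus highest at 2 kb, with intervals of 13.4% to 17.1% and 11.5% to 14.8% that did not meet those at 3 kb (3.63% to 7.64% and 3.93% to 8.26%). In N1 the interval at 2 kb, 28.5% to 35.5%, lay inside that at 3 kb, 26.9% to 49.4%. With an expected count that kept rising below 4 kb at the slope seen from 4 to 5 kb, and with calls made anew, 102 pairs were kept, of which 42 lay 2 kb apart, 28 lay 3 kb apart and 32 lay farther apart.

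The contact counts of the kept pairs had a median of 76 in C0 (range 19 to 206), 30 in N1 (5 to 67) and 66 in N2 (8 to 354). These are raw counts of pooled libraries of unequal depth. In 185 pairs the count was highest at C0 and lowest at N1, in 89 pairs it was highest at N2 and lowest at N1, and in 4 pairs it was equal at N2 and C0 and lowest at N1. The count was higher at N2 than at N1 in 279 pairs, and higher at N1 than at C0 in 1 pair. That pair joins 172001 to 173000 with 174001 to 175000 on chromosome 27, and had 52 contacts in C0, 67 in N1 and 127 in N2.

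**Figure D2:**
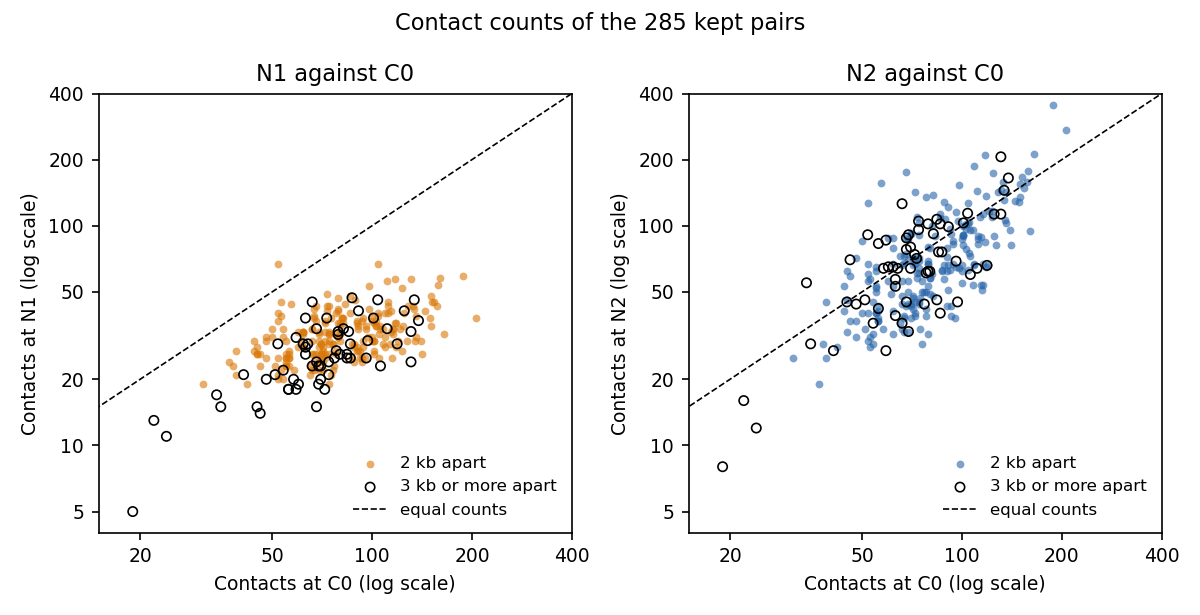
Contact counts of the 285 kept pairs at N1 (left) and at N2 (right), on the y axes, against C0, on the x axes, all in read pairs on log scales. Filled points are pairs 2 kb apart, open points pairs farther apart, and the dashed line marks equal counts. At N1, 1 pair lies above the line, and at N2, 90 pairs do.

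The pairs with the most contacts were nearly all 2 kb apart. Chromosome 22, 622001 to 623000 with 624001 to 625000, had 188 contacts in C0, 59 in N1 and 354 in N2, the highest count of any member. Chromosome 28, 383001 to 384000 with 385001 to 386000, led at C0 with 206 contacts and had 38 at N1 and 273 at N2. Chromosome 17, 526001 to 527000 with 528001 to 529000, had 165 contacts in C0, 32 in N1 and 213 in N2. All 3 had their highest count at N2 and their lowest at N1. By contrast, chromosome 8, 954001 to 955000 with 956001 to 957000, had 160 contacts in C0, 58 in N1 and 95 in N2, so its N2 count was below its C0 count. The pairs named here were picked partly by their N2 count, and 185 of the 285 kept pairs were highest at C0 and lowest at N1. Chromosome 1, 600001 to 601000 with 602001 to 603000, for example, had 154, 45 and 148 contacts. Some other strong pairs were again highest at N2. Chromosome 15, 981001 to 982000 with 983001 to 984000, shared the highest N1 count of any member, 67, and had 104 contacts at C0 and 127 at N2. Chromosome 7, 505001 to 506000 with 507001 to 508000, had 117 contacts in C0, 57 in N1 and 209 in N2. Among the pairs 3 kb apart, chromosome 19, 460001 to 461000 with 463001 to 464000, had the most contacts at N2, with 131, 33 and 206 contacts at C0, N1 and N2, and shared the highest C0 count with a pair on chromosome 15, 838001 to 839000 with 841001 to 842000 (131, 24 and 113).

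Only 6 kept pairs lay more than 10 kb apart. The pair on chromosome 8, 305001 to 306000 with 316001 to 317000, had 68 contacts in C0, 15 in N1 and 88 in N2. Chromosome 9 held a pair 17 kb apart, 954001 to 955000 with 971001 to 972000, with 46, 14 and 70 contacts at C0, N1 and N2. It also held a pair 16 kb apart, 1144001 to 1145000 with 1160001 to 1161000, with 22, 13 and 16 contacts. Observed over expected ratios in these 3 pairs ran between 3.62 and 5.86 at C0, between 7.52 and 12.9 at N1 and between 6.87 and 8.93 at N2. On chromosome 23, 19001 to 20000 with 45001 to 46000, 26 kb apart, had 35, 15 and 29 contacts.

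The other 2 joined both ends of a chromosome. On chromosome 21 the bin 1 to 1000 met 833001 to 834000, 833 kb away, with 19 contacts in C0, 5 in N1 and 8 in N2. On chromosome 28 the bin 1 to 1000 met 584001 to 585000, 584 kb away, with 24, 11 and 12 contacts. These counts are low, but the expected counts at such distances are lower still, and the observed over expected ratios were 103, 186 and 103 on chromosome 21 and 68.7, 109 and 78.2 on chromosome 28. Set against C0, the ratio at N2 was 1.00 times as high on chromosome 21 (0.379 to 2.39) and 1.14 times as high on chromosome 28 (0.519 to 2.37). Both intervals include 1.

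Relative to the expected count, the kept pairs stood at a median of 2.78 in C0, 4.55 in N1 and 4.29 in N2. The ratio was highest at N1 and lowest at C0 in 165 pairs and highest at N2 and lowest at C0 in 109 pairs. Since listing at N1 and N2 required more enrichment than listing at C0, this order is tied to the rule and is given as a description.

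The change of each pair was taken as its observed over expected ratio in one group over that in another, with the expected counts held as known in its interval. For N1 over C0 the median change was 1.66, with 283 of 285 pairs above 1. For N2 over C0 it was 1.53, with 276 pairs above 1. The interval of the change lay wholly above 1 in 159 kept pairs (55.8%) for N1 over C0. It did so in 58.4% of all 373 pairs listed in both groups, members included, and in 67.0% of the 88 not kept. These 88 had a median change of 1.75. For N2 over C0 the interval lay above 1 in 167 kept pairs (58.6%), against 40.2% of all 1588 pairs listed in both groups. Of the 1303 not kept, 36.2% had such an interval, and their median change was 1.43. The interval lay below 1 in 0 kept pairs in both comparisons, as it did in 0% of all pairs listed in both groups. Both comparisons share the C0 list, and both use the contrast that selected the members, so nothing is read from these shares.

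The direction of both medians depended on what the counts were scaled by. The raw count ratio had a median of 0.384 for N1 over C0. The expected curve at 2 kb gave a ratio of 0.457, and the product of the bias factors gave a median ratio of 0.518, below 1 in 279 pairs. With the distance curve alone, without the bias factors, the median change for N1 over C0 was 0.859, with 87 pairs above 1, and scaled by cis valid read pairs it was 0.865, with 96 pairs above 1. For N2 over C0 the raw count ratio had a median of 0.848, the curve ratio was 0.632 and the bias product ratio had a median of 0.882. Without the bias factors the median change was 1.35, with 224 pairs above 1, and scaled by cis valid read pairs it was 1.18, with 187 pairs above 1. Scaled by the summed contacts of each list, it was 0.852, with 94 pairs above 1. The kept pairs were therefore higher at N1 than at C0 only under scalings that included the bias factors, the list sums or the trans expected count, and higher at N2 than at C0 under all scalings tried except the list sums.

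Some pairs departed from the rest. The highest change for N2 over C0 was 4.45 (3.26 to 6.13), at chromosome 4, 621001 to 622000 with 623001 to 624000, which had 57 contacts in C0, 44 in N1 and 157 in N2. The next was 3.004 (2.21 to 4.11), at chromosome 6, 482001 to 483000 with 485001 to 486000, with 66, 45 and 126 contacts. A neighbour shares the bin 482001 to 483000, the pair with 480001 to 481000. It had the lowest change of all for N1 over C0, 0.934 (0.575 to 1.47), with 92 contacts in C0, 25 in N1 and 97 in N2. The shared bin had bias factors of 0.955 in C0, 0.955 in N1 and 0.963 in N2. Bins of kept pairs on chromosomes 1, 2, 13, 26 and 28 had the same factors. The changes of both chromosome 6 pairs thus rest on factors that may not be specific to this bin, which was not tested. The lowest change for N2 over C0 was 0.808 (0.540 to 1.19), for the last bins listed on chromosome 13, 1046001 to 1047000 with 1048001 to 1049000, with 95, 25 and 38 contacts. The change of N2 over N1 had a median of 0.914, with 111 pairs above 1, and its direction also depended on the scaling. The median was 1.59 without the bias factors (253 pairs above 1), 1.35 scaled by cis valid read pairs (207 pairs), 1.03 by the trans expected count (153 pairs) and 0.290 by the list sums (0 pairs).

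The kept pairs were also set beside the other listed pairs at the same distance. At 2 kb the contact counts had a median of 78 in kept pairs and 60.5 in other pairs of C0, of 31 and 32 in those of N1 and of 66 and 51 in those of N2. The observed over expected ratio had a median of 2.76 in kept pairs and 2.64 in other pairs of C0, of 4.48 and 4.06 in those of N1 and of 4.21 and 3.18 in those of N2. Of the other 2-kb pairs, 42.8% in C0, 35.8% in N1 and 17.2% in N2 lay above the median of the kept pairs. The distance between the medians was thus widest at N2 in the observed over expected ratio, and the distributions overlapped in every group. The lists chose both sets, so these values have no test.

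**Figure D3:**
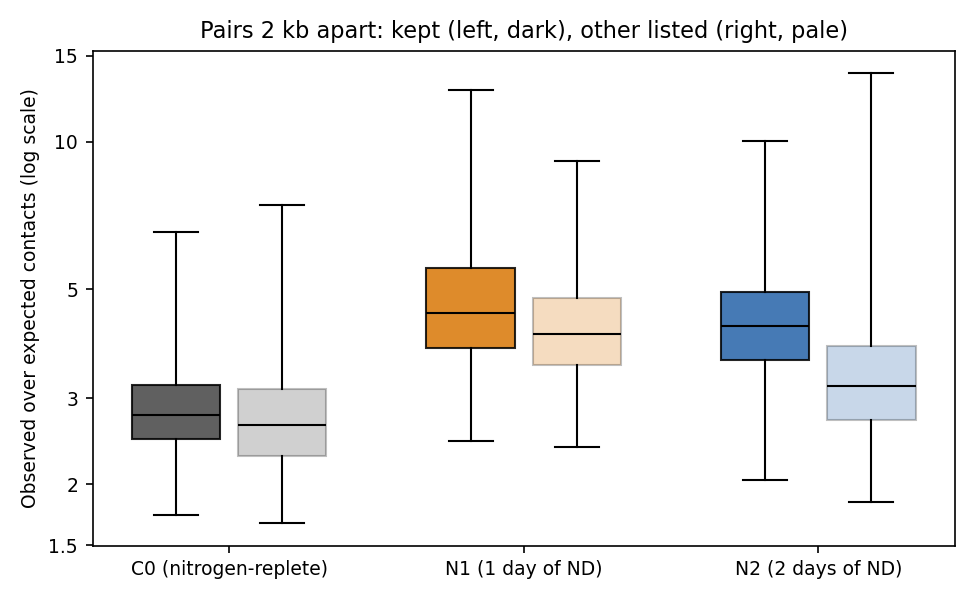
Observed over expected contacts (y axis, log scale) of pairs 2 kb apart at C0, N1 and N2, for the 224 kept pairs (left, dark) and the other listed pairs (right, pale). Boxes span the quartiles with the median as a line, and whiskers reach the lowest and highest value. The medians of the kept pairs were 2.76, 4.48 and 4.21, and those of the other pairs 2.64, 4.06 and 3.18.

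Over the 224 kept pairs at 2 kb the rank correlation of contacts was 0.476 between N1 and C0, 0.663 between N2 and C0 and 0.573 between N2 and N1. The same correlation for the observed over expected ratio was 0.518, 0.500 and 0.304. Within a group the contacts followed the product of the bias factors, with rank correlations of 0.833 in C0, 0.739 in N1 and 0.805 in N2. At 2 kb the expected count is proportional to this product, and listing required a count well above it. The correlations with the product are thus tied to the rule. All points of a group share the same pooled libraries, and pairs that share a bin share a factor, so these values are descriptions.

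The kept pairs used 517 distinct bins, 1.67% of the 30972 bins of the genome. Their bias factors had a median of 1.13 in C0, 0.822 in N1 and 1.06 in N2. They ran from 0.510 to 1.97, from 0.501 to 1.97 and from 0.514 to 1.99. Factors of the other listed cis pairs had similar limits, 0.501 to 1.998 in C0, 0.500 to 1.993 in N1 and 0.501 to 1.999 in N2. The medians and shares given here thus cover only factors within these limits. Factors below 1 belonged to 36.2% of the bins of kept pairs in C0, 74.5% in N1 and 43.5% in N2. In the other cis-listed bins these shares were 48.0%, 62.6% and 40.8%. The share in kept pairs was the smaller one at C0 and the larger one at N1, and the difference was not tested. Between groups the factor was lower at N1 than at C0 in 475 of 517 bins, with a median ratio of 0.717. It was lower at N2 than at C0 in 333 bins, with a median ratio of 0.942. Bins on chromosomes 1, 2, 6, 13, 26 and 28 shared factors of 0.95475 in C0 and 0.95461 in N1, and count as lower. The other cis-listed bins, a different set in each group, had median factors of 1.02 in C0, 0.861 in N1 and 1.11 in N2. Their change bin by bin was not taken, so a lower factor at N1 may not be particular to the kept pairs. The rank correlation of the factors over the 517 bins was 0.716 between N1 and C0, 0.874 between N2 and C0 and 0.742 between N2 and N1.

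All 30 chromosomes held kept pairs, at 9.20 per Mb over a summed length of 30972000 bp, where the length of a chromosome is the highest position in any list. Chromosome 6 held the most, 24 pairs or 17.2 per Mb. Chromosome 23 had 12 pairs (17.0 per Mb) and chromosome 27 had 9 (14.1 per Mb). The fewest were on chromosomes 25 and 26, with 3 pairs each (4.41 and 4.62 per Mb). These densities rest on small counts. The share of the N1 list that was kept was 54.5% on chromosome 30 (6 of 11 pairs, 23.4% to 83.3%) and 50.0% on chromosome 27 (26.0% to 74.0%). On chromosome 26, 3 of the 30 pairs of the N1 list were kept (2.11% to 26.5%). The differences between these shares were not tested.

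**Figure D4:**
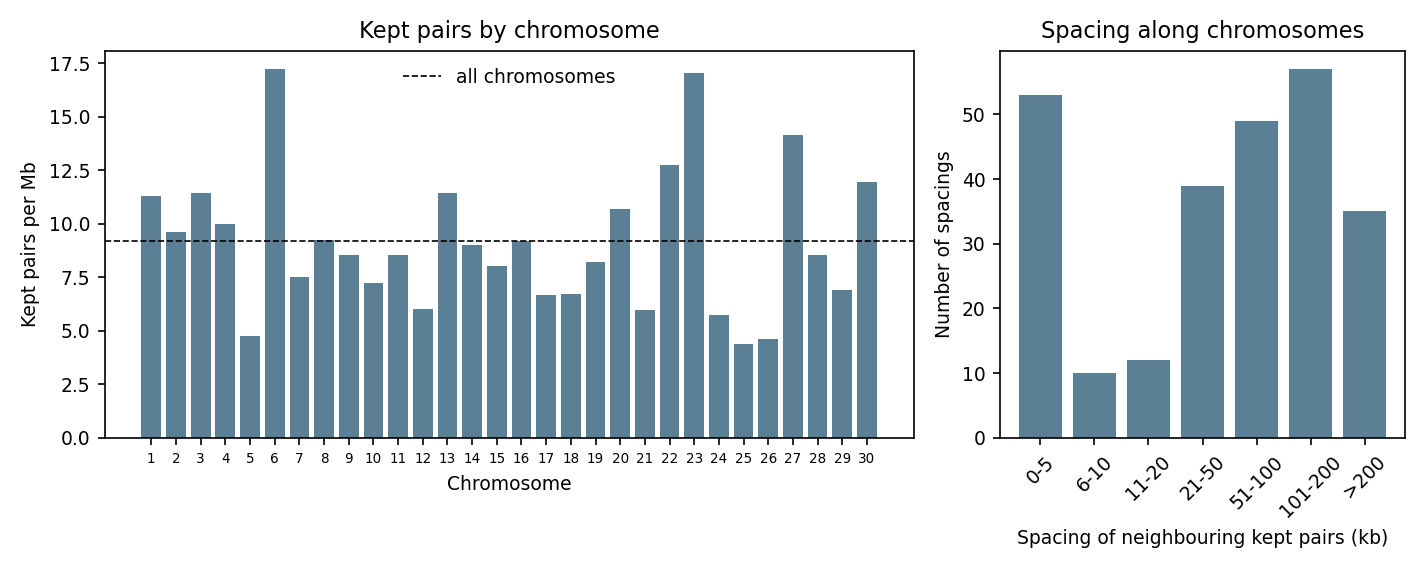
Left, kept pairs per Mb (y axis) on each of the 30 chromosomes (x axis), with the value over all chromosomes, 9.20, as a dashed line. Right, number of spacings (y axis) between the starts of neighbouring kept pairs on a chromosome, by size in kb (x axis); 53 of 255 spacings were at most 5 kb, and 10 were 6 to 10 kb.

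Along the chromosomes, the kept pairs were partly grouped. The median spacing between the starts of neighbours was 59 kb, but 53 of the 255 spacings (20.8%) were at most 5 kb, and only 10 were 6 to 10 kb. Joined when their spans lay within 5 kb, the pairs under 100 kb formed 227 runs, of which 185 held 1 pair and 42 held at least 2. These 42 runs held 98 pairs, or 34.6%. A bin was shared with another kept pair in 93 pairs (32.6%). Of the bins, 473 had 1 kept partner, 36 had 2, 7 had 3 and 1 had 4, and 27 of the 36 had a partner on each side. Spacings, runs and shared bins of the other listed pairs are not given here, so grouping may not be particular to the kept pairs.

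The longest run by number lay on chromosome 23, from 233001 to 248000, with 5 kept pairs. Its pair 241001 to 242000 with 243001 to 244000 had 72 contacts in C0, 36 in N1 and 143 in N2, and 238001 to 239000 with 243001 to 244000 had 56, 18 and 83. Counts over the whole run ran from 56 up to 96 in C0, from 18 up to 36 in N1 and from 64 up to 143 in N2. On chromosome 6, the run from 1121001 to 1130000 centred on the bin 1124001 to 1125000, the only bin with 4 kept partners, 2 on each side. Its pair with 1122001 to 1123000 had 124 contacts in C0, 35 in N1 and 173 in N2, while its pair with 1127001 to 1128000 had 66, 23 and 36. The other left partner had 59, 31 and 86 contacts, and the other right partner 48, 20 and 44. In raw counts the left partners thus rose from C0 to N2 and the right ones fell, 1 of them only slightly. Relative to the expected count, the change for N2 over C0 was above 1 for all 4 partners. It was 2.03 and 2.19 on the left and 1.31 (0.849 to 2.00) and 1.86 on the right. In the cis lists as a whole the bin had 8 partners in C0, 5 in N1 and 13 in N2. Runs of 4 pairs also lay on chromosome 3, from 1231001 to 1247000, all of whose pairs were 2 kb apart, and on chromosome 8, from 303001 to 317000, which included the 11-kb pair given above. On chromosome 30 the bin 329001 to 330000 had 3 kept partners, all to its right.

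Near the ends of chromosomes, within 20 kb, lay 20 kept pairs (7.02%), and 3.87% of all bins lie there. Among the other listed pairs, 18.4% in C0, 10.6% in N1 and 5.57% in N2 lay near ends. These shares were not matched for distance. Of the other pairs, 10.3% in C0, 2.87% in N1 and 4.08% in N2 lay over 100 kb apart, against 0.702% of the kept pairs. The 20 pairs had median counts of 74 in C0, 30.5 in N1 and 50.5 in N2, and the 265 pairs farther in had 76, 30 and 66. The median change for N2 over C0 was 1.26 near ends and 1.53 farther in. Near ends this change ran from 0.808 to 2.61. The highest was on chromosome 3, 1648001 to 1649000 with 1650001 to 1651000, with 68 contacts in C0, 26 in N1 and 175 in N2. Another pair near an end with more contacts at N2 than at C0 was on chromosome 18. There 889001 to 890000 with 891001 to 892000, close to the right end, had 158 contacts in C0, 54 in N1 and 178 in N2.

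A 2-kb pair skips 1 bin, and this middle bin was mostly not listed itself. Of the 224 middle bins of kept pairs, 13 were in the cis list of C0 (5.80%, 3.13% to 9.72%), 5 in that of N1 (2.23%, 0.729% to 5.13%) and 17 in that of N2 (7.59%, 4.48% to 11.9%). Of all bins, 15.6%, 5.30% and 16.1% were in these lists. Middle bins of the other 2-kb pairs were listed in 8.31% in C0, 4.60% in N1 and 13.6% in N2. Of the kept middle bins, 197 (87.9%) were in no cis list, against 75.8% of all bins of the genome, and 0 were an end of another kept pair. The cause was not tested. Beyond the pair, the bins 3 kb from the middle, 2 kb past an end, were listed for 28.8% and 30.2% of kept pairs on the left and right at C0, for 16.0% and 17.6% at N1 and for 37.4% and 35.1% at N2. The bins 2 kb from the middle, next to the pair, were listed for 16.8% and 14.4% of kept pairs at C0, for 5.91% and 3.15% at N1 and for 20.5% and 17.6% at N2. The bins 4 kb from the middle were listed for 28.7% and 24.4% of kept pairs on the left and right at C0, for 9.26% and 5.43% at N1 and for 23.6% and 24.0% at N2. For the other 2-kb pairs the bins at 3 kb were listed for 28.3% and 28.2% in C0, for 14.4% and 13.0% in N1 and for 27.1% and 26.6% in N2.

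**Figure D5:**
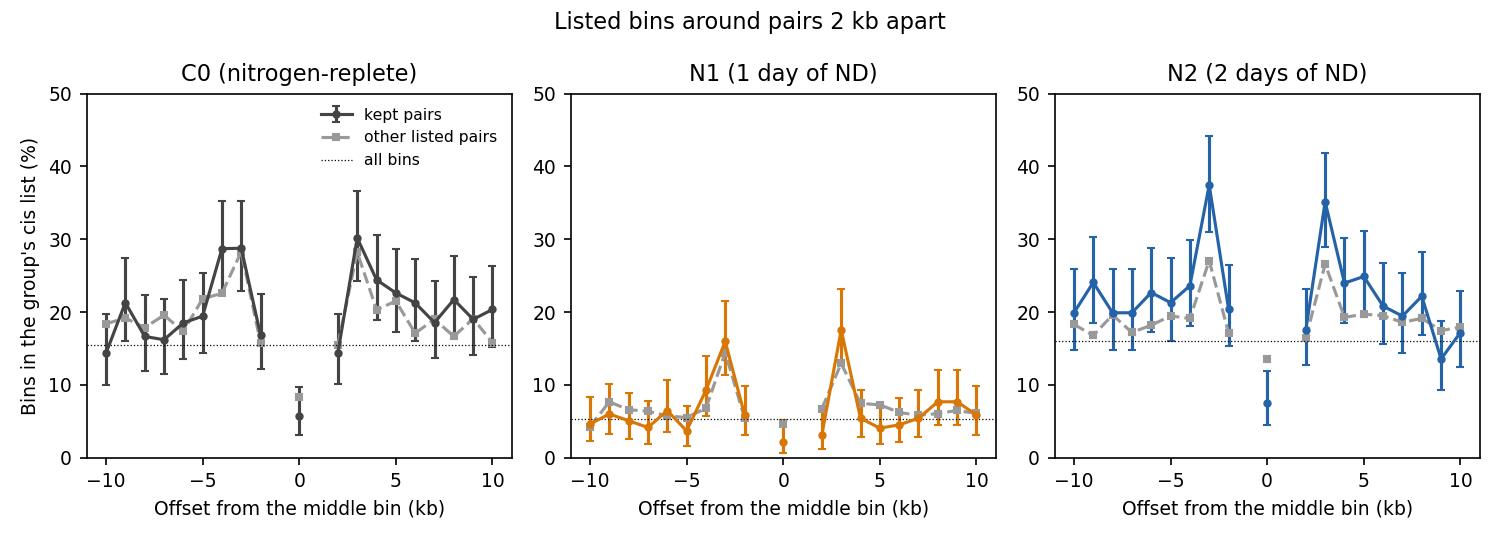
Percent of pairs 2 kb apart (y axis) for which the bin at a given offset from the middle bin (x axis, kb) was in the cis list of C0, N1 or N2. Coloured points are kept pairs with exact binomial 95% intervals, grey squares other listed pairs, and the dotted line all bins of the genome; the pair's own bins, always listed, are left out. The middle bin was listed for 5.80%, 2.23% and 7.59% of kept pairs at C0, N1 and N2, and the bins at 3 kb on the left for 28.8%, 16.0% and 37.4%.

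Contacts with other chromosomes were not used by the rule. Of the 517 bins of kept pairs, 41 occurred in the trans list of C0 (7.93%, 5.75% to 10.6%), 8 in that of N1 (1.55%, 0.670% to 3.03%) and 37 in that of N2 (7.16%, 5.09% to 9.73%). Of the other cis-listed bins, 6.02% (5.33% to 6.78%), 0.888% (0.427% to 1.63%) and 3.43% (2.92% to 4.01%) occurred in the trans lists of C0, N1 and N2. The intervals of kept and other bins overlapped at C0 and N1 and were apart at N2. With a trans bin allowed up to 1 bin away, 47, 9 and 92 bins of kept pairs matched at C0, N1 and N2. At N2 these were 17.8% (14.6% to 21.4%), against 14.2% (13.2% to 15.3%) of the other cis-listed bins, so under this match the intervals overlapped at N2 too. Of the 92 bins, 49 lay that close to a trans bin with a usable bias factor, and 759 of the 1196 trans bins of N2 had no such factor, against 200 of 660 in C0. Neighbouring bins are not independent, and the intervals leave out the spread between cultures. Only 3 bins of kept pairs were in all 3 trans lists. The bin 3001 to 4000 on chromosome 29, near its left end, had 7 trans partners in C0, 1 in N1 and 3 in N2. The bins 306001 to 307000 on chromosome 21 and 333001 to 334000 on chromosome 30 had 1 partner in each group. In cis, the bin on chromosome 29 was kept with 1001 to 2000 (45, 26 and 62 contacts at C0, N1 and N2), that on chromosome 21 with 308001 to 309000 (108, 34 and 54), and that on chromosome 30 with 329001 to 330000 (60, 19 and 65).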

How the data were processed

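Hi-C was run on 6 libraries, 2 for each of C0, N1 and N2, grouped by the sample labels. Per the methods, replicates were pooled, and Fit-Hi-C interactions with a contact count above 2 and with p and q below 0.01 were retained. The submitters' processing notes also name HiC-Pro and edgeR. The deposited contact count of each bin pair is a raw count that the authors made from pooled replicates, without scaling. The p-value and the q-value deposited with each pair came from the Fit-Hi-C run of the authors. The deposited score of each bin is the bias factor by which the authors corrected its expected contacts. The methods name 10-kb bins and a 10-kb lower distance, whereas the lists hold 1-kb bins from 2 kb apart. The methods also differ from the labels in the optical density of the cultures at transfer. The lists of pairs shared between groups hold names only and were not used.

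The expected count of a pair was recovered as the Poisson mean for which a count as high as the one listed has the deposited p-value as its probability. Its distance curve was that mean divided by both bias factors. The recovery was checked on p-values made with the same Poisson formula, which does not test the authors' own model. With the deposited p-values, the recovered mean divided by both bias factors was nearly constant among pairs 2 kb apart. Its spread from lowest to highest was 0.0018% in N2 and smaller in C0 and N1. The intervals of ratios were checked on simulated Poisson counts that no listing threshold had selected. Ratios between groups have exact conditional binomial 95% intervals, shares exact Clopper-Pearson intervals and counts exact Poisson intervals. No test was run, since each group is 1 pooled list, and its own depth limits which pairs could be listed. Pairs were named as those with the highest counts in a group, the lowest summed counts, the highest and lowest changes, the longest distances, the largest runs, the most partners or the q-values nearest the threshold. Not all are described. The members, lists and settings were chosen with earlier results of these data known. Alternatives tried were at least 5 contacts, a q-value below 0.001, matches within 1 or 5 bins, merging of neighbours, leaving out chromosome 6, longer distances, a continued expected count, other scalings, other run gaps, single counting of bins and a looser trans match. Python 3.11.15, numpy 2.4.6, pandas 2.3.3 and scipy 1.17.1 were used.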

Additional observations from a re-analysis of the deposited data

How the results depend on the processing

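Of 93 values under alternative settings, 51 stayed within the counting interval or within 1.5 times the count, 36 moved and 6 reversed. The number of kept pairs was 173 at a q-value below 0.001, 431 and 1272 for matches within 1 and 5 bins, 32 over 3 kb, 6 at 10 kb or more, and 102 with the continued expected count, where 41.2% lay at 2 kb. Median contacts at C0, N1 and N2 were 59, 32 and 71 for matches within 5 bins and 29.5, 13.5 and 22.5 at 10 kb or more; over 3 kb they were 63 at C0 and 20.5 at N1, and at a q-value below 0.001 they were 32 at N1. The median observed over expected ratio at C0, N1 and N2 was 3.32, 6.09 and 5.56 over 3 kb and 5.47, 13.0 and 8.76 at 10 kb or more, and at a q-value below 0.001 it was 4.96 at N1 and 4.49 at N2. The median change for N1 over C0 was 1.71 at a q-value below 0.001, 2.00 over 3 kb, 2.06 at 10 kb or more, 2.92 scaled by list sums and 1.20 by the trans expected count; it reversed to 0.865 scaled by cis valid read pairs and to 0.859 without bias factors. For N2 over C0 it was 1.75 over 3 kb, 1.18 scaled by cis valid read pairs, 1.24 by the trans expected count and 1.35 without bias factors, and it reversed to 0.852 scaled by list sums. For N2 over N1, whose scalings were added after seeing the data, it was 0.290 scaled by list sums and reversed to 1.35 by cis valid read pairs, 1.03 by the trans expected count and 1.59 without bias factors. At a q-value below 0.001, 17 runs held at least 2 pairs. With a trans bin allowed within 1 bin, 92 bins matched at N2. Fewer pairs or a looser match are part of these settings themselves; otherwise the cause was not tested. No paired analysis was possible because the authors pooled the replicates in each list, and for the same reason no replicate could be left out. An average pair 2 kb apart had its lowest expected count at N1, 10.3, and the part of depth in the short N1 list was not tested.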
